A study of Mus musculus with 8 samples.

Results

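The IL-1 and IL-18 receptor family was examined in Th17 cells that expressed WT-ROR-γt and in Th17 cells that expressed its SUMOylation-defective form, K187R-ROR-γt. The family was taken as 9 genes by symbol, Il1r1, Il1r2, Il1rap, Il1rl1, Il1rl2, Il1rn, Il18r1, Il18rap and Sigirr, out of 22829 genes measured. They were chosen by symbol and by 1 measured value, the mean over the 8 samples, since members with a mean under 10 normalized counts were to be reported as low only. All 9 passed that minimum, and the lowest mean was 392 normalized counts, for Il1rl2, so that no member stood close to it. The genes were chosen with earlier results of these data known, and counts and medians over the 9 are therefore a description.

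RNA seq had been performed on 4 samples per group. All samples came from ROR-γt-/- mice, so that both groups lacked the endogenous factor, and the cells were reconstituted with WT-ROR-γt in one group and with K187R-ROR-γt in the other before culture under Th17 conditions. By the study's methods, splenic CD4+ T cells were isolated with magnetic beads and transduced with lentivirus, and no sort for transduced cells was described for the RNA. Nothing in the labels says whether the samples of a group were separate cultures, and the design text speaks of mice of 2 kinds where the methods describe transduced cells. The p-values therefore measure the spread between these samples only, and a part of that spread may be technical. Age and sex were not given in the sources used here.

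IL-1 family receptors are cell surface proteins with immunoglobulin domains outside the cell and a TIR domain inside it. A ligand-binding chain joins an accessory chain, and the paired TIR domains recruit MyD88 and IRAK kinases, which activate NF-κB and MAP kinases. In T cells, IL-1 acting through Il1r1 promotes Th17 differentiation, IL-18 acts on Th1 cells together with IL-12, and IL-33 acts on Th2 cells and a part of the regulatory T cells. Decoy receptors, a secreted antagonist and an inhibitory receptor hold these signals back.

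Of the 9 genes, 6 lie side by side on mouse chromosome 1 and are the only protein-coding genes between the start of Il1r2 and the end of Il18rap, a stretch of 477627 bases (GRCm38, 40074079 to 40551705). In order along the plus strand they are Il1r2 (40074079 to 40125231), Il1r1 (40225080 to 40317257), Il1rl2 (40324610 to 40367562), Il1rl1 (40429570 to 40465415), Il18r1 (40465552 to 40500854) and Il18rap (40515362 to 40551705). Il1rn lies on chromosome 2 (24336853 to 24351494, plus strand), Il1rap on chromosome 16 (26581704 to 26730117, plus strand) and Sigirr on chromosome 7 (141091175 to 141100572, minus strand).

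The sequences before the gene starts are shown for Il1r1, the member with the smallest p between the groups, and for the members in which AGGTCA, the core of the element bound by ROR factors, was found. RefSeq start sites (GRCm38.p6) were matched by symbol for 8 of the 9 genes, giving 14 windows of 250 bases. Each window is given 5′ to 3′ on the gene's own strand, which is the plus strand in all 4, and capitals mark the letters AGGTCA or, where the match is on the opposite strand, TGACCT. The first Il1r1 window (chr1:40224830-40225079) ends at the annotated start of the gene. The second (chr1:40266336-40266585) lies inside Il1r1, before an inner start site, and holds no exon base of it. The Il1rl1 window (chr1:40439379-40439628) precedes an inner start site of that gene and the Il1rn window (chr2:24336610-24336859) precedes its first.
Il1r1, first start: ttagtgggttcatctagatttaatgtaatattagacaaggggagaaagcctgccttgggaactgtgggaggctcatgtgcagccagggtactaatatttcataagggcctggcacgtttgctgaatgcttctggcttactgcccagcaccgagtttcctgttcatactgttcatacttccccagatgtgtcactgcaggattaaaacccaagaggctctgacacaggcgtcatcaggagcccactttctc
Il1r1, inner start: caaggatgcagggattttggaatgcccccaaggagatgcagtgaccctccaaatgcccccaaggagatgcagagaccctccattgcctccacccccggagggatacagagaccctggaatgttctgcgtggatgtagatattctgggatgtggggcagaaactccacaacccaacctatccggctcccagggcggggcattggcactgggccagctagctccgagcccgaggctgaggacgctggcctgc
Il1rl1, inner start: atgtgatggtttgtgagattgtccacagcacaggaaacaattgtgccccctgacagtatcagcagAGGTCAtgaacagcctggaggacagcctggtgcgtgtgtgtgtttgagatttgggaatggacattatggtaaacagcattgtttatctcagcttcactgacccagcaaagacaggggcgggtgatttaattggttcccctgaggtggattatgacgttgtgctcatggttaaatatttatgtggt
Il1rn, first start: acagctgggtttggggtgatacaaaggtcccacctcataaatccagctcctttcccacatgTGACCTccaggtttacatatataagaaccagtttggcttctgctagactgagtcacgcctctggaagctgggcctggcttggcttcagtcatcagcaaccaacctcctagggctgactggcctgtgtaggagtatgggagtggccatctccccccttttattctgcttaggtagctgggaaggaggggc

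The letters AGGTCA, searched on both strands, was found in 2 of the 14 windows, 185 bases before the inner start of Il1rl1 and 189 bases before the first start of Il1rn, and it is found in 14.0% of the 32851 windows of all genes. The AP-1 motif TGANTCA was found in the same Il1rn window and no other, against 6.75% of all windows. The STAT motif TTCNNNGAA was found in a window of Il1r2 and in 1 of Il18r1, against 7.02% of all windows. None of the 3 motifs was found in either Il1r1 window or in those of Il1rl2, Il18rap and Il1rap. A match is a description of letters and not a measured binding site, and the absence of a match says nothing of binding elsewhere.

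The files give normalized counts, that is reads counted on a gene divided by 1 size factor per sample, from 52456804 to 74676721 reads per sample. The members were counted with 165 reads or more in every sample, whereas 3 reads correspond to 2.54 to 3.56 normalized counts. Clustering of the samples by all tested genes except the members was cut into 3 sets, a number that was chosen and not tested, and these cut across the groups. WT replicates 1 and 3 and K187R replicate 1 formed the first set, WT replicate 2 and K187R replicates 2 and 3 the second, and WT replicate 4 and K187R replicate 4 the third. A set is not a matched background. On the 2 main axes of variation between samples (principal components), K187R replicate 1 was at -17.61 and -12.79. WT replicate 1 was at -41.23 and -32.18 and WT replicate 3 at -39.77 and -20.45. Xist, the RNA of the inactive X chromosome that female cells make, was at 13564 to 17373 normalized counts in the second set. It was at 3.56 to 23.7 in the others, so the samples were not alike within either group. By this RNA, WT replicate 2 and K187R replicates 2 and 3 differed in sex from the rest. The samples of a group were therefore not all repeats of 1 culture, and sex was not balanced between the groups. The labels name no batch, and values within sets are given beside the group differences. CD4 T cell markers (Cd3d, Cd3e, Cd3g, Cd4, Lck, Cd28) summed to 136090 to 155166 normalized counts in WT and 142921 to 157015 in K187R samples, and none of the 6 passed the adjusted threshold by limma.

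By limma, Il1r1, Il1rl2, Il18r1 and Il18rap gave the largest log2 fold changes between the groups, each with a higher mean in K187R samples, while by DESeq2 Il1rn (0.59) came before Il18rap (0.44). Il1r1 was 1.84-fold higher, Il18r1 1.57-fold, Il1rl2 1.59-fold and Il18rap 1.41-fold, while Il1rap and Sigirr differed by log2 fold changes of 0.053 and 0.16. No gene of the family, and 0% of all 16982 genes tested, passed an adjusted p of 0.05 by limma on log2(normalized count + 1). At an unadjusted p under 0.05, 3 of the 9 members were higher in K187R samples (2.75% of all genes) and none was lower (1.64%). By DESeq2 on the recovered reads, 1 member, Il1r1, passed the adjusted threshold on the higher side (0.1% of all genes, 17) and none on the lower side (0.0824%, 14). The median log2 fold change of the members was 0.46, with 9 of 9 above 0, and that of all genes was -0.0062, with 48.4% above 0. Every K187R sample lay above every WT sample for 2 members, Il1r1 and Il18r1, which is the case for 1.47% of all genes, and below for none (0.989%).

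**Figure D1:**
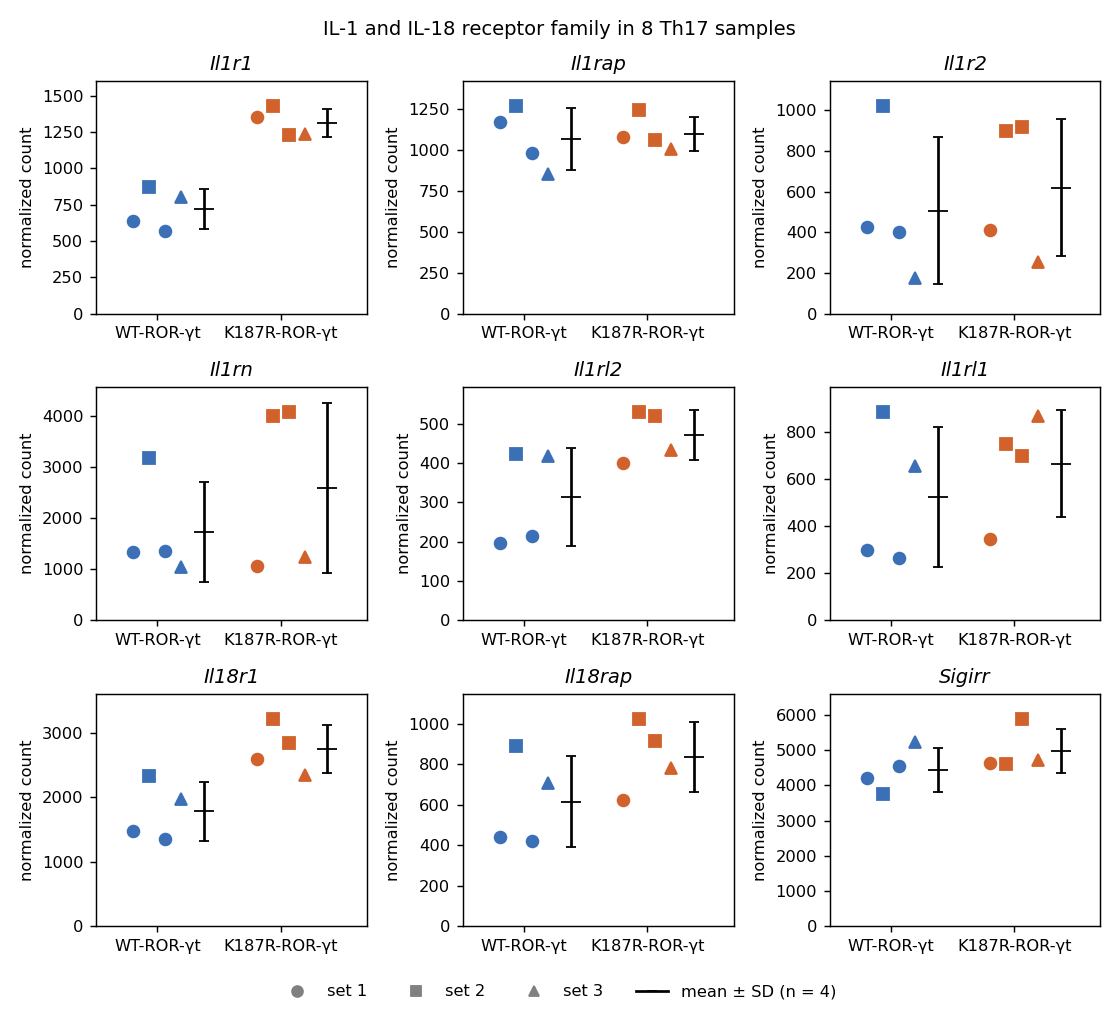
Normalized count (y axis, from 0) of each of the 9 genes in the 4 WT-ROR-γt and 4 K187R-ROR-γt samples, with the mean ± SD in black and the marker shape giving the sample set. The groups do not overlap for Il1r1 and Il18r1, and Il1rn splits by set, with 3179 to 4070 in set 2 and 1035 to 1362 elsewhere.

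Il1r1 encodes the receptor that binds IL-1α and IL-1β and carries the signal. Its normalized counts were 642, 872, 571 and 801 in WT replicates 1 to 4 and 1351, 1430, 1227 and 1238 in K187R replicates 1 to 4. The lowest K187R sample was above the highest WT sample, and the K187R samples were also the more even, with 1311 ± 96.7 against 721 ± 139 (SD, n = 4 each). The log2 fold change was 0.88 (SE 0.140, 95% interval 0.56 to 1.19), with an unadjusted p of 0.00012 by limma, the fourth smallest of all genes, and an adjusted p of 0.344. The exact two-sided permutation test gave p = 0.0286, the smallest that 4 against 4 samples can give. DESeq2 gave a log2 fold change of 0.86 and an adjusted p of 3.73e-05, so that the call depends on the tool. Since the groups did not overlap, the direction within each set was fixed in advance. The difference was 1.16, 0.60 and 0.63 on the log2 scale in sets 1, 2 and 3. It was 0.96 both without set 2 and without set 3.

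Il1rap encodes the accessory chain that Il1r1, Il1rl1 and Il1rl2 share. Il1rap was at 1170, 1268, 979 and 850 normalized counts in WT samples and at 1079, 1246, 1059 and 1006 in K187R samples. The groups overlapped almost fully, and no sample stood apart. Between groups the log2 fold change was 0.053 (95% interval -0.25 to 0.36), with p = 0.704 by limma and p = 0.743 by the exact permutation test, and within sets it was 0.011, -0.14 and 0.24. Of its exon bases, 4.86% are overlapped by Gm20319 on the opposite strand, and whether reads were counted by strand is not given in the sources used here.

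The ratio of Il1r1 to Il1rap, each per kb of exon, was 0.979, 1.23, 1.04 and 1.68 in WT samples and 2.24, 2.05, 2.07 and 2.20 in K187R samples. The ranges did not overlap, and the mean log2 ratio was 0.83 higher in K187R samples. No test is given for the ratio, since Il1r1 alone already separated the groups.

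Il1r2 encodes the decoy receptor, which binds IL-1 without a TIR domain. Il1r2 was at 425, 1020, 402 and 174 normalized counts in WT samples and at 410, 895, 915 and 255 in K187R samples. They followed the sample sets rather than the groups, at 402 to 425 in set 1, 895 to 1020 in set 2 and 174 to 255 in set 3. The log2 fold change of 0.37 had a 95% interval of -0.88 to 1.62, with p = 0.518 by limma and p = 0.629 by the exact permutation test, and it came to -0.046 without WT replicate 4. Within sets the K187R samples differed by -0.012, -0.17 and 0.55. The Il1r1 to Il1r2 ratio per kb of exon overlapped between groups, at 0.256 to 1.38 in WT and 0.402 to 1.45 in K187R samples.

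Il1rn encodes the receptor antagonist, a secreted protein that occupies Il1r1 without signalling. Il1rn was at 1334, 3179, 1362 and 1035 normalized counts in WT samples and at 1060, 3999, 4070 and 1244 in K187R samples. The 3 samples of set 2 were the 3 highest, and the other 5 overlapped between groups. On the log2 scale the difference was 0.46 (95% interval -0.68 to 1.60), with p = 0.389 by limma and p = 0.514 by the exact permutation test, and without set 2 it was -0.10. Within sets the difference was -0.35, 0.34 and 0.26 on the log2 scale.

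Il1rl2 encodes the IL-36 receptor. Il1rl2 was at 196, 424, 213 and 418 normalized counts in WT samples and at 400, 529, 520 and 434 in K187R samples. WT replicates 1 and 3 were low and the other 6 samples lay between 400 and 529, so that the groups overlapped. Between groups the log2 fold change was 0.67 (SE 0.270, 95% interval 0.064 to 1.28), with an unadjusted p of 0.0338 and an adjusted p of 0.921 by limma. The exact permutation test gave p = 0.114, and the differences within sets were 0.96, 0.31 and 0.053.

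Il1rl1 encodes ST2, the IL-33 receptor, of which a soluble form that acts as a decoy is also made. Its normalized counts were 298, 885, 263 and 657 in WT and 343, 752, 698 and 871 in K187R samples. The 3 samples of set 1 were at 263 to 343 and the other 5 at 657 to 885, in both groups. The log2 fold change was 0.44 (95% interval -0.51 to 1.40), with p = 0.321 by limma and p = 0.343 by the exact permutation test, and within sets it was 0.29, -0.29 and 0.41. A count per gene does not separate the soluble from the membrane form.

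Il18r1 encodes the chain that binds IL-18, and Il18rap its accessory chain. For Il18r1 the normalized counts were 1478, 2337, 1348 and 1978 in WT and 2598, 3222, 2837 and 2341 in K187R samples. The groups did not overlap, but only just, since K187R replicate 4 at 2341 was next to WT replicate 2 at 2337. The log2 fold change was 0.65 (SE 0.177, 95% interval 0.25 to 1.05), with an unadjusted p of 0.00485 and an adjusted p of 0.921 by limma, and p = 0.0286 by the exact permutation test. DESeq2 gave an adjusted p of 0.202, and within sets the differences were 0.88, 0.37 and 0.24.

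For Il18rap the normalized counts were 442, 891, 424 and 707 in WT and 626, 1026, 916 and 784 in K187R samples. The WT samples of set 1 were the 2 lowest, and the groups overlapped. The log2 fold change was 0.49 (95% interval -0.08 to 1.06), with p = 0.0847 by limma and p = 0.171 by the exact permutation test. Within sets it was 0.53, 0.12 and 0.15. Il1r1, Il18r1, Il1rl2 and Il18rap each had a higher K187R value in 3 of 3 sets. For Il1r1 and Il18r1 this was fixed in advance, since every K187R sample lay above every WT sample. Set 3 held only WT replicate 4 and K187R replicate 4, and the share of all genes higher in 3 of 3 sets was not computed. For all 4 of these members the difference was largest in set 1, in which the K187R sample lay apart from the 2 WT samples.

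Sigirr encodes an inhibitory receptor of the family that holds back IL-1 and IL-18 signals. Sigirr was at 4205, 3763, 4534 and 5238 normalized counts in WT samples and at 4644, 4597, 5892 and 4720 in K187R samples. K187R replicate 3 was the highest, and the other 3 K187R samples were within 4597 to 4720. On the log2 scale the difference was 0.16 (95% interval -0.10 to 0.43), with p = 0.197 by limma and p = 0.286 by the exact permutation test, and within sets it was 0.089, 0.47 and -0.15.

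**Figure D2:**
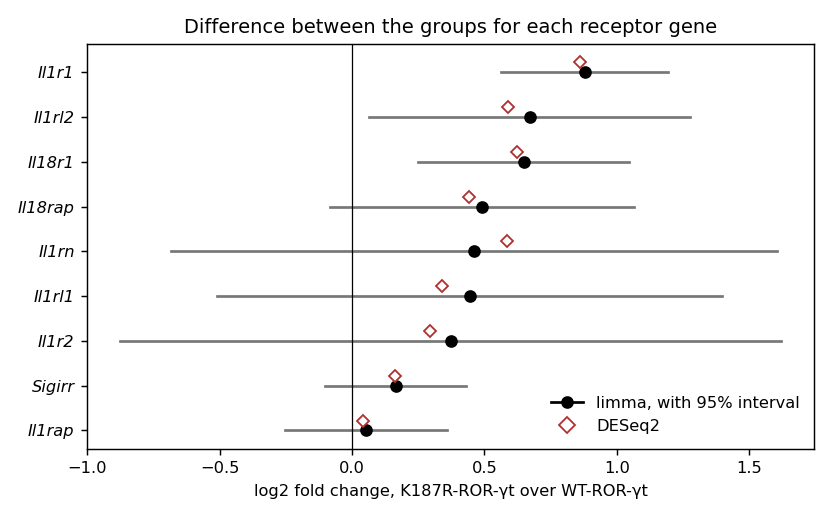
Log2 fold change of each of the 9 genes, K187R-ROR-γt over WT-ROR-γt (x axis), with the limma 95% interval as a line and the DESeq2 estimate as an open diamond. The intervals of Il1r1, Il18r1 and Il1rl2 lie above 0, and those of the other 6 genes include 0.

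Along the cluster, the differences were not even. The decoy Il1r2 at one end had a log2 fold change of 0.37 with a wide interval, Il1r1 had 0.88, Il1rl2 0.67, Il1rl1 0.44, Il18r1 0.65 and Il18rap 0.49. Of the genes beside the cluster, Map4k4, a kinase gene, had 0.066 (95% interval -0.08 to 0.21, adjusted p = 0.923 by limma). Slc9a4, the protein-coding gene next to Il18rap, was not among the 22829 genes measured. Beyond it, Slc9a2, a sodium-proton exchanger gene, had -0.45 (95% interval -0.91 to 0.018) with an unadjusted p of 0.0578 and an adjusted p of 0.921 by limma.

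**Figure D3:**
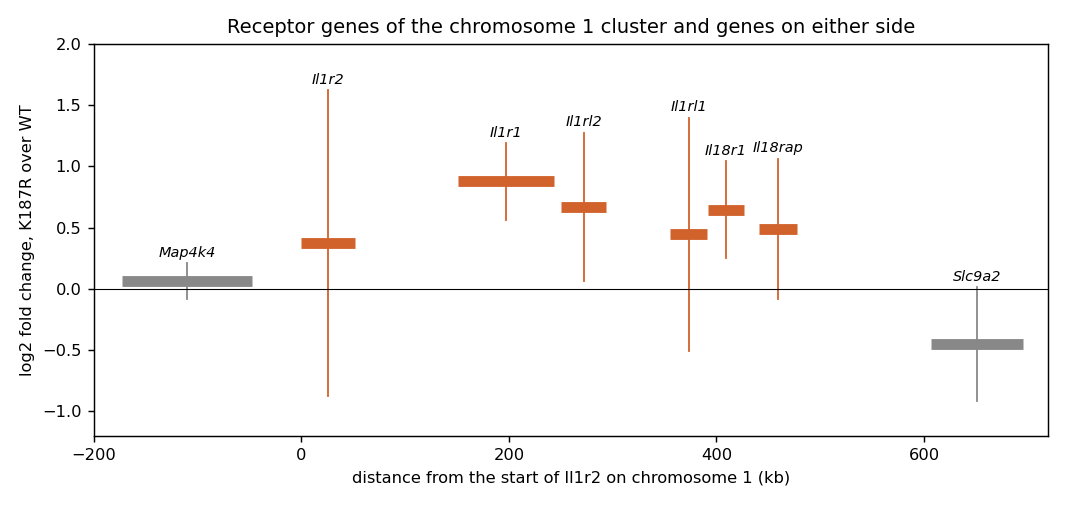
Log2 fold change, K187R over WT (y axis), of the receptor genes of chromosome 1 (orange) and of Map4k4 and Slc9a2 on the 2 sides (grey; Slc9a4, between Il18rap and Slc9a2, is not plotted), against distance from the start of Il1r2 in kb, with limma 95% intervals as thin lines. Il1r1 has the highest value, at 0.88, and the genes in grey are at 0.066 and -0.45.

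Per kb of exon, Sigirr had the highest level of the family, with a mean of 1544 normalized counts per kb over the 8 samples, above the next gene in all 8. Il18r1 followed at 471, Il1rn at 390, Il1r2 at 295 and Il1r1 at 160 normalized counts per kb. Il18rap was at 108, Il1rap at 95.3, Il1rl1 at 86.5 and Il1rl2 at 57.5. Il1r1 was above Il18rap in 8 of 8 samples and Il1rn above Il1r2 in 7 of 8, as was Il1rl1 above Il1rl2. Il18r1 exceeded Il1rn in 5 of 8 and Il1r2 exceeded Il1r1 in 6 of 8. Il18rap exceeded Il1rap in 5 of 8 and Il1rap exceeded Il1rl1 in 4 of 8. Only Sigirr and Il1r1 were above the next gene in every sample. These counts pool both groups, and the order of neighbours was not tested.

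**Figure D4:**
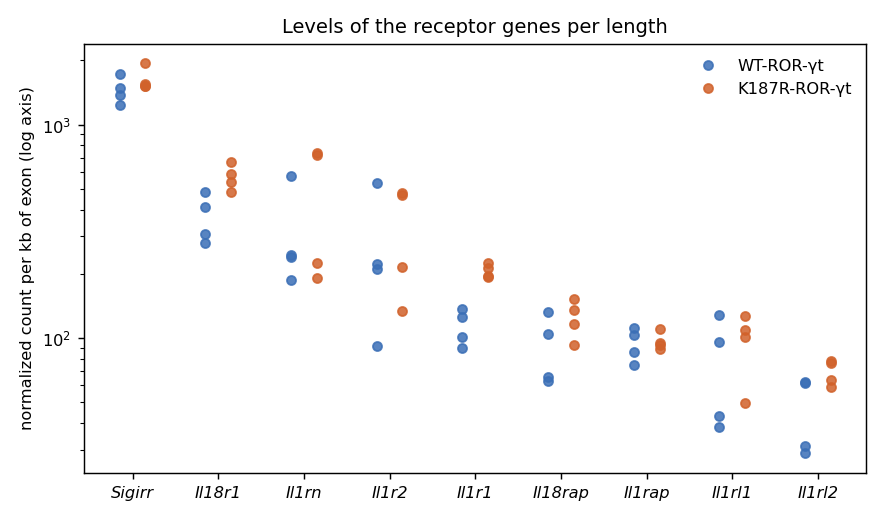
Normalized count per kb of exon (log axis) of the 9 genes in the 4 WT (blue) and 4 K187R (orange) samples, ordered by the mean over all 8. Sigirr is highest at 1237 to 1936 and Il1rl2 lowest at 28.8 to 77.7 normalized counts per kb.

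The ligands and their binding proteins gave no call. Of 14 symbols listed, 7 were in the table and 6 had a mean of at least 10. The symbols include older and newer names of the same gene. Some of those missing, such as Il36g for Il1f9 and Il36a for Il1f6, therefore stand for genes that were present. Of the 6 tested, 0 passed the adjusted threshold by limma and 0 had an unadjusted p under 0.05. Numerically 5 were higher in K187R samples, with a median log2 fold change of 0.53. Il1b was at 142 to 159 normalized counts in set 3, 387 to 835 in set 1 and 4226 to 5411 in set 2, and Il1a at 135 to 159, 204 to 324 and 1809 to 2567. Their log2 fold changes of 0.54 and 0.76 were therefore small beside the spread between sets. Il1f9, which encodes IL-36γ, had 0.71 (adjusted p = 0.921 by limma), Il18 0.52, and Il18bp, the soluble IL-18 binding protein, 0.048. Il33 was low, at 3.85 to 18.3 normalized counts, and had -0.055.

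No gene of the signal chain beneath the receptors was called. Of 27 genes, 0 passed the adjusted threshold by limma and 0 had an unadjusted p under 0.05, with 15 numerically higher, 12 lower and a median log2 fold change of 0.011. The smallest p-values on the higher side belonged to the kinase Irak4 (0.17), the adaptor Myd88 (0.15) and Mapk14, the p38α kinase (0.11), each with an adjusted p of 0.921 by limma. On the lower side they belonged to Map2k3, which activates p38 (-0.26), Chuk, the IKKα kinase (-0.16), and Mapk8, the JNK1 kinase (-0.14), likewise with an adjusted p of 0.921 by limma.

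Other receptors with a TIR domain were 14 listed genes, of which 11 were tested. None passed the adjusted threshold, all 11 were numerically higher in K187R samples, and the median log2 fold change was 0.42. By comparison, 48.4% of all genes tested were above 0. Within sets the direction was not uniform. In set 1 Tlr5 was lower in the K187R sample than in both WT samples and the others were higher. Tlr3, Tlr4 and Tlr8 were lower in both K187R samples of set 2 than in its WT sample, and the others were not. In set 3 Tlr1, Tlr3, Tlr6, Tlr9 and Tlr12 were lower in the K187R sample and the others were higher. Tlr1, a partner of Tlr2 in sensing lipoproteins, had 0.30 with an unadjusted p of 0.0480 by limma. The nucleic acid sensors Tlr7 and Tlr13 followed with 0.28 and 0.59, each with an adjusted p of 0.921 by limma.

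Several of these genes are also expressed by myeloid cells, neutrophils and mast cells, and the markers of such cells moved with the sample sets. In these bulk samples fewer cells of a type and less RNA per cell cannot be told apart. The 8 myeloid markers summed to 24839, 58710, 25139 and 70968 normalized counts in WT and 42093, 52162, 55748 and 74203 in K187R samples, with 8 of 8 numerically higher in K187R and 0 called by limma. The 2 WT samples of set 1, the lowest of all for Il1r1, Il1rl2, Il18r1 and Il18rap, were also the lowest for this sum, and the part of these cells in the receptor differences of set 1 was not tested. In set 2 the WT sample had a myeloid sum of 58710 against 52162 and 55748 in the K187R samples. Most of that sum was Lyz2, at 42242 in the WT sample and at 35455 and 38318 in the K187R samples. Itgam, Fcgr3 and Mpeg1 were also lower in both K187R samples of set 2, while Csf1r, Adgre1, Cd14 and Cd68 were higher in both. Il1r1, Il18r1, Il1rl2 and Il18rap were higher in both as well, and the part of these cells in set 2 was not tested. Neutrophil markers summed to 3041 to 41405 in WT and 9842 to 29251 in K187R samples, with 5 of 5 numerically higher. Mast cell and basophil markers summed to 1388 to 5293 and 1896 to 5655, with 6 of 6 numerically higher, and to 1388 to 1896 in set 1 alone, where Il1rl1 was lowest. The myeloid and neutrophil sums were also lowest in set 1, and the part of any of these cells in the Il1rl1 level was not tested. No marker of the myeloid, neutrophil, and mast cell and basophil lists was at 0 in any sample. The neutrophil marker Retnlg was under 3 reads in WT replicates 1 and 3, at 2.38 and 0.85 normalized counts. For B cells the 5 markers summed to 301 to 1220 in WT and 357 to 1596 in K187R samples, with 5 of 5 numerically higher.

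Among T cell lists, the 5 Th17 markers (Il17a, Il17f, Il23r, Ccr6, Il22) summed to 13169 to 28600 in WT and 21733 to 34089 in K187R samples, with 5 of 5 numerically higher, 4 of them at an unadjusted p under 0.05 and 0 at the adjusted threshold by limma. Il17a had a log2 fold change of 0.74, Il23r 1.27 and Ccr6 1.02. The 5 regulatory T cell markers summed to 98591 to 168828 and 91260 to 127508, with 2 higher and 3 lower, and Ctla4 was lower in every K187R sample (-0.51, adjusted p = 0.921 by limma and 0.00776 by DESeq2). Most of that sum was Il2ra, at 72628 to 132086 in WT and 68677 to 99074 in K187R samples. The sums were 7326 to 10340 against 8102 to 9145 for Th2 and ST2 cell markers, 4526 to 6220 against 3949 to 6258 for Th1 markers, 908 to 1706 against 746 to 1590 for CD8 and NK markers and 1100 to 1694 against 1337 to 1770 for γδ T cell markers, in WT and K187R samples, with 0 called in each by limma. The largest part of the Th2 and ST2 sum was Ccr8, at 3681 to 6707 in WT and 4212 to 5545 in K187R samples. Ncr1, an NK cell receptor gene, was at 0 in 3 of the 8 samples.

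**Figure D5:**
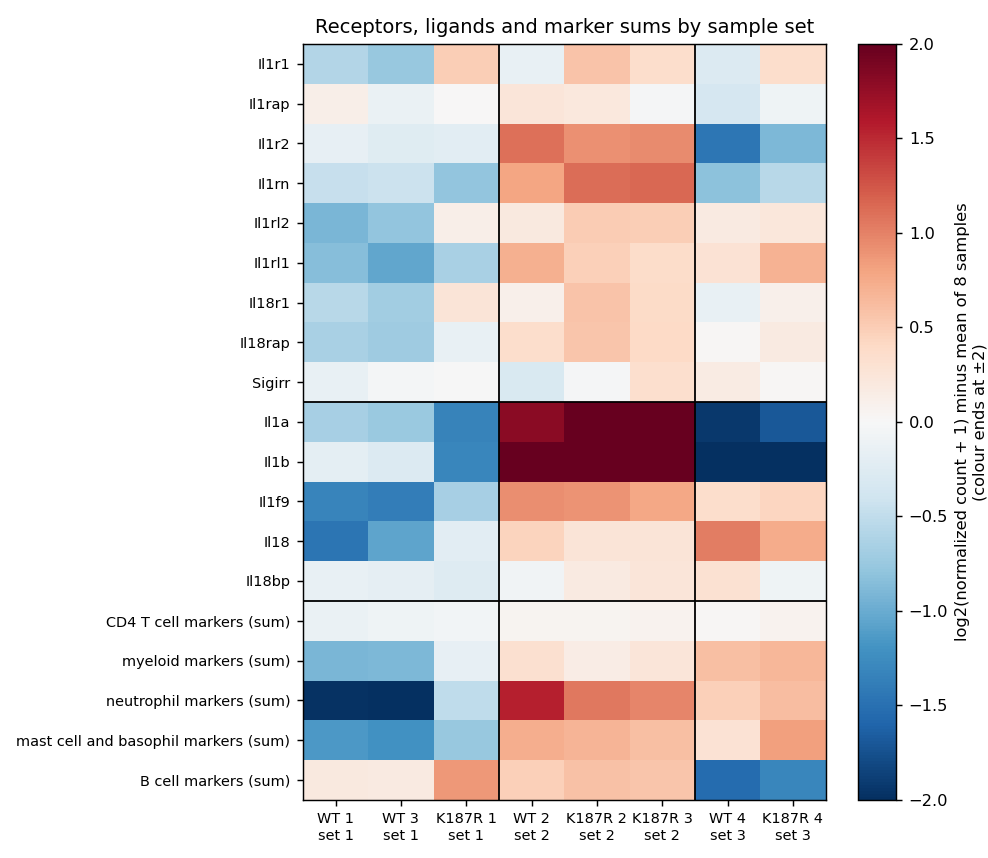
Log2(normalized count + 1) minus the mean of the 8 samples (colour, ends at ±2) for the 9 genes of the family, 5 genes of ligands or binding proteins and 5 marker sums, with samples (columns) ordered by set. Il1r2, Il1rn, Il1a and Il1b are high in set 2, and Il1rl1 and the neutrophil and mast cell sums are low in set 1.

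The 2 members with the largest SD of log2 values over the 8 samples were Il1r2 (0.92) and Il1rn (0.86). Genes most like Il1r2, by the root mean square difference of log2 values centred on their own means, were Rab39 (0.169), Kcnip3 (0.181), Cd86 (0.197), Ildr1 (0.237) and Ccrl2 (0.245). For Il1rn they were Adgrg5 (0.165), Gstt1 (0.172), Nlrp3 (0.184), Ttbk1 (0.186) and A530010L16Rik (0.193). Il1rn ranked 66 in likeness to Il1r2 with a difference of 0.377. These values describe 8 samples that share the 3 sets.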

How the data were processed

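RNA seq of 8 samples, 4 WT and 4 K187R, was analysed, with groups taken from the labels. Per the methods and the labels, the authors trimmed reads with Cutadapt, aligned them to GRCm38 with HISAT2, counted them on GENCODE genes with featureCounts and used DESeq2. Each gene has 1 deposited signal per sample, a normalized count, which is its reads divided by that sample's size factor. The labels name a TruSeq-type kit and total RNA, whereas the methods describe a poly-A library from another kit. Dividing each value by the worth of 1 read gave whole reads for every gene, with a largest deviation of 0.00049 of a read (tolerance 0.01). The depth was 52456804 to 74676721 reads per sample, and low counts have the wider relative error.

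Groups were compared mainly with limma (eBayes with a trend) on log2(normalized count + 1). It was run on 16982 genes, those whose mean reached 10, and p-values were adjusted by the Benjamini-Hochberg method with a threshold of 0.05. Exact two-sided permutation tests of mean log2 values were run for single members. The edgeR quasi-likelihood test and DESeq2 on the recovered reads were alternatives, beside pseudocounts, filters, quantile normalization, a replicate block, sample sets and leaving out each sample. The limma, edgeR and DESeq2 tests were run on simulated data that held no sample sets. The permutation test and the fits with a replicate block or sample sets were not. The tools were limma 3.58.1, DESeq2 1.42.0 and edgeR 4.0.16 in R 4.3.3, and pandas 2.3.3, scipy 1.17.1, numpy 2.4.6 and matplotlib 3.10.9 in Python 3.11.15.

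Gene coordinates came from GENCODE M21, in which 22784 of 22829 identifiers were found, and exon lengths are the union of its exons. Sample sets were drawn by complete linkage on 1 minus the correlation of log2 values, without the members, and the tree was cut at 3 sets by choice. The members, and the lists of ligands, signal chain genes, other TIR receptors and markers of CD4 T, Th17, Th2 and ST2, regulatory T, Th1, CD8 and NK, γδ T, B, myeloid, neutrophil, and mast cells and basophils, were chosen with earlier results of these data known. Named are the 9 members, tested ligands, the 3 genes of smallest p in each direction of the other lists, and for the 2 most variable members the 5 genes most like each. Ctla4 and Ccr6, Il17a and Il23r, and all 8 myeloid markers, were named from the marker lists. Map4k4, Slc9a2, Xist, Il2ra, Ccr8, Retnlg and the Tlr genes with a lower K187R value within a set were named after their values were seen. A further marker gene of Th17 cells is not reported here.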

Additional observations from a re-analysis of the deposited data

Results flagged for a closer look

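Sigirr in K187R replicate 3, at 5892 normalized counts, lay far from the other 3 samples of its group, which were within 4597 to 4720. On the log2 scale the gap to the nearest was 0.893 of the range, above Dixon's 95% critical value for 4 samples. It was 1 of 18 groups examined, and chance flags about 1 in 20.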

How the results depend on the processing

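Across 20 alternatives, Il1r1 kept a higher level in K187R samples, with log2 fold changes from 0.77 to 0.98 and adjusted p from 3.73e-05 to 0.99998, and it passed the threshold by DESeq2 alone (0.86). DESeq2 called 1 member and 31 genes (843 at an unadjusted p under 0.05), edgeR 0 (729) and limma 0 (746); the cause was not tested. With the sample set as a factor limma called 1 gene, Ccr6, and without the third set, an alternative chosen after seeing the data, 4. Leaving out 1 sample gave 0 to 4 genes, with 4 without WT replicate 4, and 0 members. Il18r1, Il1rl2, Il18rap, Il1rl1 and Sigirr kept their direction in all 20. In leave-one-out fits Il1r2 ranged from -0.046 to 0.80 and Il1rap from -0.050 to 0.14, the latter also -0.0095 without K187R replicate 2 and -0.010 without the third set. Il1rn was -0.10 without the second set, also left out after seeing the data. Low counts do not limit the members, which had 165 reads or more.

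The replicate numbers of the labels were checked for pairing. Deviations from the group means correlated at 0.59, 0.66 and 0.63 for numbers 1, 2 and 4 but at -0.09 for number 3, so the numbers were not taken to pair the samples. The samples numbered 1, 2 and 4 each fell in the same set as their namesake of the other group. With a replicate block limma called 0 genes (2046 at an unadjusted p under 0.05), 0 members, and gave Il1r1 0.88 with an adjusted p of 0.199.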
